A study of Mus musculus with 12 samples.

Results

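Of the 13572 merged m1A regions found in mouse striatum, 479 had a peak in 2 or 3 of the 3 control libraries and in none of the 3 libraries from tissue with Tet1 deleted. N1-methyladenosine (m1A) is an adenosine that carries a methyl group on the edge that pairs with uridine. The peaks of all 6 lists were merged where they shared at least 1 bp, and these regions were chosen by the calls themselves. The contrast between control and deleted tissue was therefore used to pick them, and it is given as a description with no test. Of these control-alone regions, 89.6% had their summit in a protein-coding gene, beside 87.2% of all regions. The share was higher, 91.3%, for regions called in 2 or 3 controls and also in a list from the deleted tissue. Of the 440 genes with a control-alone region, 245 had another m1A peak in a list from the deleted tissue.

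m1A is best known from transfer RNA, where methyltransferases place it in the T loop, and it is also found in ribosomal RNA and at low levels in mRNA. In mRNA it has been mapped near the transcript's start and start codon, and ALKBH3 is a demethylase that can remove it. TET1 is a dioxygenase known for oxidising 5-methylcytosine in DNA. The series asks at which RNAs TET1 affects m1A.

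All animals were adult male mice with loxP sites in both Tet1 alleles (Tet1 fl/fl), and the tissue was the caudate putamen (CPu), the dorsal striatum. Controls received AAV-EGFP in the CPu. The group labelled Tet1 delta/delta, called KO below, received AAV-Cre-EGFP there. Tissue was taken 2 weeks later. Each group had 3 m1A pull-downs and 3 inputs, 12 samples in all. The deletion was limited to cells that the virus reached, the labels do not name the promoter driving Cre, and they do not say that the numbered libraries came from separate animals. A p-value over libraries then measures only the spread between these libraries.

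The pull-downs of controls 1, 2 and 3 rested on 459332, 1097292 and 864206 tags, and those of KO 1, 2 and 3 on 1235247, 2508102 and 1336328. Each KO library was thus deeper than any control. Control 1 stood apart: it was called with all duplicate tags kept, the other libraries with at most 1 tag per position, and 2123 of its 3148 regions were in no other list. Where a list has no peak, m1A was not detected at that depth, which does not show it to be absent. The lists carry no strand, so a gene and an antisense or overlapping partner cannot be told apart. A list measures neither transcript level nor cell number, so fewer cells of a type, less of a transcript per cell and less m1A per transcript cannot be told apart behind a missing call. Of 35 striatal projection neuron genes, 28 had a peak in some list.

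Of the control-alone regions, 61 touched the first bases of a gene or the bases just before it, and 5 of them are shown with sequence because they lie across or beside the start of a protein-coding gene with no other annotated gene over the stretch. The sequences are from RefSeq windows of the mouse build GRCm38.p6. Each shows 90 bases before the annotated start and 30 bases after it, 5′ to 3′ on the gene's strand. Capitals mark the bases inside the called region.
Rasl11b, chr5:74195236-74195355, plus strand: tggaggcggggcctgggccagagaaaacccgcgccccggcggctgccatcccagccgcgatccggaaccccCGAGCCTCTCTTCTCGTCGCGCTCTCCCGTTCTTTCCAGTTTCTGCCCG
Scn4b, chr9:45138534-45138653, plus strand: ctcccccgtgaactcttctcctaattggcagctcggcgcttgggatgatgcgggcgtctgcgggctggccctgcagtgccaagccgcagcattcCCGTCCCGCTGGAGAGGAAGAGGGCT
Slmap, chr14:26534595-26534714, minus strand: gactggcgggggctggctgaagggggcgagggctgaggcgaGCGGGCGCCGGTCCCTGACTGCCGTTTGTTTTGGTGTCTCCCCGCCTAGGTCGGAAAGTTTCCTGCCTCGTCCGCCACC
Rnf26, chr9:44113022-44113141, minus strand: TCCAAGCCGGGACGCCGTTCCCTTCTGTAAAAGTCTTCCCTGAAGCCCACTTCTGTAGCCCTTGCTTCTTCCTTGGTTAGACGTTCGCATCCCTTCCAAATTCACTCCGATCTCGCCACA
Syn1, chrX:20920889-20921008, minus strand: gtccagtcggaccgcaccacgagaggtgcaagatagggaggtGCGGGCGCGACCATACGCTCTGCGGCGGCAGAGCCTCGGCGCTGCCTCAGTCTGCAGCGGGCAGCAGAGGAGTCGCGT

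The 5 regions differed in where they sat against the start. The Rasl11b region (a Ras-like small GTPase) was called in all 3 controls, with fold enrichments of 8.21, 9.37 and 5.95 in controls 1, 2 and 3 and summits 116 to 144 bases downstream of the start. Fold enrichment is the authors' value for a peak, the pull-down over its local background at the summit. The Scn4b region (a sodium channel beta subunit of striatal projection neurons) had folds of 5.92, 6.14 and 4.27 and summits 70 to 138 bases downstream. Slmap, a membrane-associated protein, was called in controls 2 and 3 at 4.27 and 4.40, with summits 58 to 113 bases downstream. Syn1, the synaptic vesicle protein synapsin I, was called in the same libraries at 4.10 and 5.67, with summits 198 to 234 bases downstream. The region at Rnf26, a ubiquitin ligase, was called in controls 1 and 2 at 6.80 and 4.18. Its summits lay upstream of the annotated start, in no annotated gene.

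The 479 control-alone regions were 3.53% of all regions. Regions with a peak in 2 or 3 KO lists and in no control list numbered 903, or 6.65% of all. Of the 2170 regions called in at least 2 controls, the 479 were 22.1%, and the other 1691 also had a peak in 1, 2 or 3 KO lists. Controls 2 and 3 called 305 of the 479 without control 1 (63.7%). All 3 controls called 108 (22.5%), controls 1 and 2 called 41 (8.56%), and controls 1 and 3 called 25 (5.22%). Controls 1, 2 and 3 thus called 174, 454 and 438 of them.

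**Figure D1:**
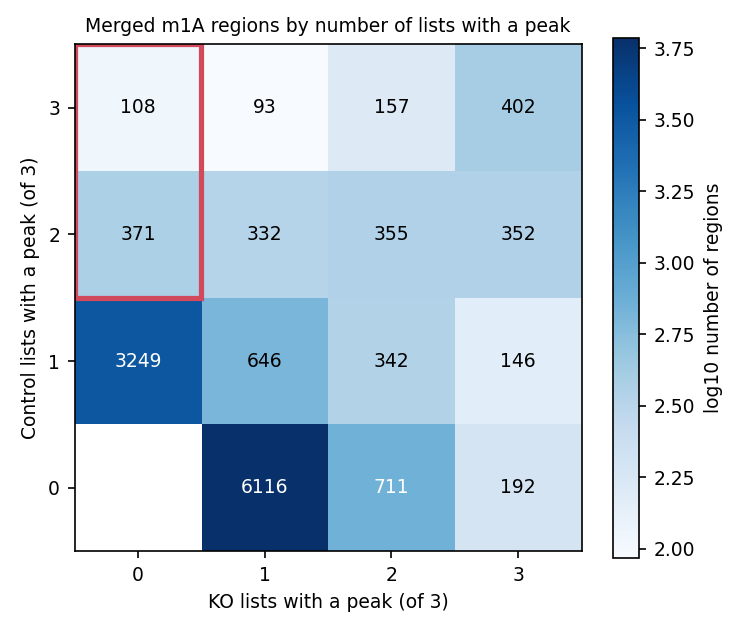
Number of merged m1A regions by how many control lists (vertical axis) and KO lists (horizontal axis) had a peak, with colour giving the log10 of the number. The outlined cells, 108 and 371 regions, are the control-alone regions; the cells beside them with 1 KO list hold 93 and 332.

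The choice rests on single calls at its edges. Just outside it were 425 regions with 2 or 3 control peaks and a peak in 1 KO list, and 3249 regions with a peak in 1 control alone. Median fold enrichments of the 425 were 6.98, 7.19 and 7.28 in controls 1, 2 and 3. Those of the control-alone regions were 7.63, 6.78 and 6.98. Regions called in 1 control alone had medians of 3.84, 6.24 and 6.23. In controls 2 and 3 the control-alone regions lay below the regions shared with a KO list, whose medians were 8.01 and 8.02, while in control 1 the shared regions had 7.68. The median percentile of the control-alone peaks within their own list was 82.7 in control 1, 45.0 in control 2 and 46.4 in control 3. Their merged width was 296 bp at the median (177 to 1347 bp), but merging over more lists widens a region. Within each list, control-alone peaks had median lengths of 208, 232 and 230 bp in controls 1, 2 and 3, against 220, 282 and 272 bp for peaks shared with a KO list.

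**Figure D2:**
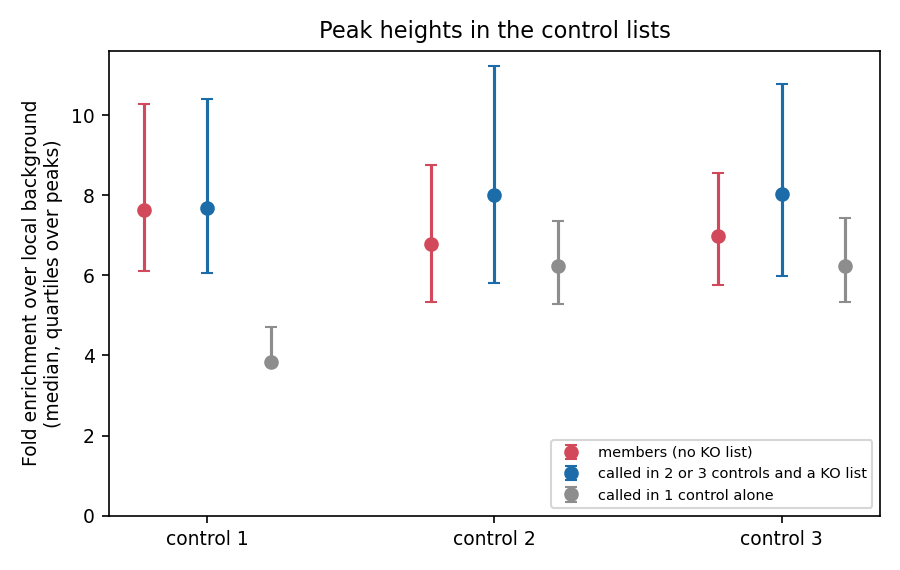
Fold enrichment over the local background (vertical axis) in each control list, as the median (point) and quartiles (bars) over peaks. In controls 2 and 3 the control-alone regions (6.78 and 6.98) sit between the regions seen in 1 control alone (6.24 and 6.23) and those also called in a KO list (8.01 and 8.02).

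The highest control-alone peaks were led by control 1. Of its 174 peaks in these regions, 30 had a fold above 20 (17.2%), against 40 of its 785 peaks in regions shared with a KO list (5.10%) and 2 of 2123 in regions called there alone. The limit of 20 was set after the values were seen. The 30 regions had a median pileup, the tag coverage at the summit, of 110 in control 1, beside 16 in control 2 and 15.5 in control 3. Their median folds were 43.1, 11.6 and 9.82. Of the 30 summits, 12 lay in protein-coding genes, 5 in genes of long non-coding RNA (lncRNA) and 12 in no annotated gene. Control 1 kept every duplicate tag, and the part of duplicates in these heights was not tested. The other 81 regions called in all 3 controls had medians of 7.33, 7.34 and 7.56, and 70 of them (86.4%) lay in protein-coding genes.

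Among annotated genes, the region with the highest lowest fold lay in Cmss1 and Filip1l, which overlap on chromosome 16 (57391251 to 57391715), at 162, 66.8 and 43.9 in controls 1, 2 and 3. It belongs to a list of loci that can collect reads of ribosomal RNA, an RNA that itself carries m1A. That list was taken from earlier work on these data, so it supports nothing by itself. All 6 of its genes with a peak had a control-alone region, and no gene of it had a region called in KO lists alone. Besides Cmss1 and Filip1l it held Jarid2 at 52.4, 15.1 and 16.4 (an accessory subunit of the Polycomb complex PRC2), Lars2 at 60.6, 8.32 and 7.79 (the mitochondrial leucyl-tRNA synthetase), Rn18s-rs5 and Gm15564. Such copies share reads with ribosomal RNA, so the source of these peaks is uncertain. Leaving out the list leaves 474 regions, since it drops only regions with a summit in a listed gene. It keeps the regions at chr17:39843815-39844037, 39844213-39844909 and 39845001-39846347, in no annotated gene beside Rn18s-rs5 (chr17:39847226-39847896). Whether these hold ribosomal RNA reads was not tested.

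The lncRNA gene Gm19951 had a fold of 257 in control 1, with 19.1 in control 2 and 20.2 in control 3. Its pileup was 1118 in control 1 beside 23 and 26. Arhgap21, a GTPase-activating protein, showed 86.0, 11.6 and 13.3. Tlcd4 showed 118, 15.2 and 11.2, and Dnah7b, an axonemal dynein heavy chain, 46.7, 19.8 and 11.0. Rsph3b, a radial spoke protein, had 37.5, 14.1 and 13.3. The other lncRNA genes among the 12 leading regions were Gm36876 at 35.2, 18.5 and 12.6, D130009I18Rik at 73.6, 13.5 and 10.5, and Gm46178 at 32.2, 9.97 and 10.3. In each of the genes named so far in this paragraph the control 1 value was above the others, as in the plot of folds by region. Values of different lists are set side by side here, and control 1 was called with other settings. Among the other lncRNA genes called in all 3 controls, Gm52861 had 6.97, 16.1 and 8.35, and was picked after its values were seen.

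Laptm5 and Nr4a1 were the exceptions among the leading regions. Laptm5, a lysosomal membrane protein of microglia and other blood-lineage cells, had 10.3, 11.0 and 16.7 (chr4:130935144-130935377). Nr4a1, an orphan nuclear receptor and immediate early gene, had 9.93, 10.1 and 10.6 over a region of 778 bp (chr15:101270083-101270860). Control 1 did not stand out in either. No KO peak lay in Laptm5, and the nearest to the Nr4a1 region was 2681 bp away.

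**Figure D3:**
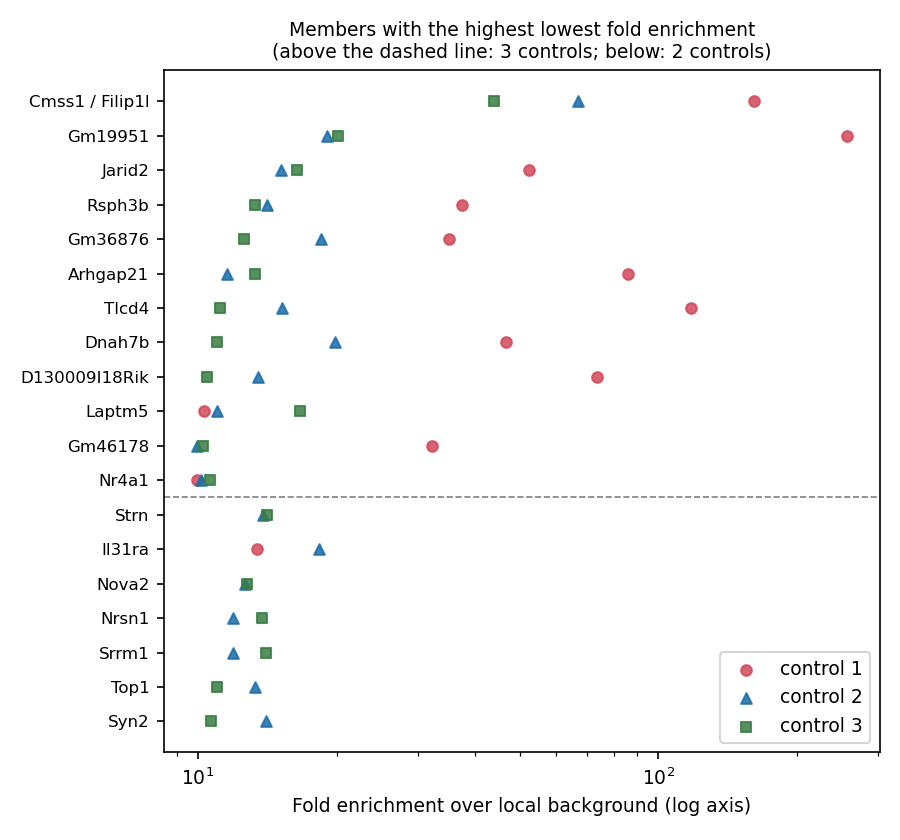
Fold enrichment over the local background (horizontal log axis) of the 12 regions called in all 3 controls (above the dashed line) and 7 called in 2 controls (below it), among those with the highest lowest fold in an annotated gene. Symbols mark the control library. Control 1 lies right of the other controls in 10 of the 12, with Laptm5 (10.3) and Nr4a1 (9.93) as the exceptions.

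The leading regions called in 2 controls were mostly from controls 2 and 3. Strn (striatin, a calmodulin-binding scaffold first described in striatum) had 13.9 and 14.1 in controls 2 and 3. Nova2, a neuronal splicing factor, had 12.7 and 12.8, and Nrsn1, a neuronal membrane protein, 11.9 and 13.8. Srrm1, a splicing coactivator, had 11.9 and 14.0, and Top1 (DNA topoisomerase I) 13.3 and 11.0. Syn2, a synapsin, had 14.1 and 10.7. Il31ra, a cytokine receptor subunit, was the exception, with 13.4 in control 1, 18.3 in control 2 and no call in control 3. The Nova2 region lay 75 bp from a KO peak, and the Strn region 85634 bp.

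Some genes carried several control-alone regions. Bsn, which encodes the presynaptic active zone protein bassoon, had 6, the most of any gene. In all it had 0, 7 and 6 peaks in controls 1, 2 and 3 and 1, 4 and 1 in KO 1, 2 and 3. The 6 regions had low to moderate folds, from 3.09 to 10.2 in control 2 and from 4.18 to 8.73 in control 3. A KO peak lay 165 bp from one of them (chr9:108107230-108107502), so at Bsn the missing calls sit among sites that KO lists did call.

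Kmt2d, a histone H3 lysine 4 methyltransferase, had 4 control-alone regions. One of them (chr15:98863841-98864302) was called in all 3 controls at 5.78, 8.75 and 8.04, with a KO peak 95 bp away. The gene had 1, 4 and 5 peaks in controls 1, 2 and 3 and 0, 2 and 2 in the KO lists. Its neighbour on the same chromosome, Ddn (dendrin, a dendritic postsynaptic protein), had 3 regions with folds of 3.98 to 4.46 in control 2. Ddn is a short gene of 4.14 kb with 0, 6 and 6 control peaks and 2 peaks in each KO list.

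Hipk2, a nuclear kinase, had 3 regions, at 7.25 and 7.99, 11.9 and 6.84, and 11.9 and 8.35 in controls 2 and 3. Kctd1, a transcriptional regulator with a BTB domain, also had 3, with folds of 4.58 to 7.67. In all, 35 genes had 2 or more control-alone regions.

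Control-alone regions fell in 440 genes, 6.61% of the 6656 genes with a peak in any list. The gene lists below were chosen with earlier results of these data known, and are described by counts without a test. Lists of long genes with many peaks have more chances of a control-alone region. The share of a list's regions called in at least 2 controls that were control-alone is therefore given beside it, to be read against 22.1% over all genes.

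By count, the postsynapse and presynaptic lists held the most genes with a control-alone region. These lists also had the most regions called in at least 2 controls, 50 and 47, so a count had more chances there. Of 44 glutamatergic postsynapse genes with a peak, 13 had a control-alone region (29.5%). Of the 50 regions called in at least 2 controls, 15 were control-alone (30%). In the same list 7 genes had a region called in KO lists alone (15.9%, beside 11.3% over all genes). By regions these were 8 of 39 called in at least 2 KO lists (20.5%, beside 34.0% over all). Nlgn2, which the list holds although this neuroligin is known from inhibitory synapses, had 9.80, 10.8 and 7.72 in controls 1, 2 and 3. Grm5 (a metabotropic glutamate receptor) had 9.53 and 5.48 in controls 2 and 3, and Baiap2 (an actin regulator of spines) 9.27 and 6.59. Each of the 13 genes also had a peak elsewhere in a KO list.

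Of 38 presynaptic release genes with a peak, 10 had a control-alone region (26.3%), and 16 of 47 regions were control-alone (34.0%), 6 of them in Bsn. In this list 7 genes had a region called in KO lists alone (18.4%), and 7 of 36 regions (19.4%). Nrxn2, a neurexin, had 6.22, 10.2 and 11.9 in controls 1, 2 and 3, with a KO peak 316 bp away. Snap25, a SNARE protein of vesicle fusion, had 7.38 and 6.72 in controls 2 and 3. None of these 10 genes lacked a KO peak.

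Of 28 striatal projection neuron genes with a peak, 7 had a control-alone region (25%), and 8 of 22 regions were control-alone (36.4%). The same list had 6 genes with a region called in KO lists alone, 7 of 19 regions (36.8%), near the 34.0% over all regions called in at least 2 KO lists. Ngef, a guanine nucleotide exchange factor of striatal neurons, had 2 control-alone regions, at 8.48, 7.50 and 8.59 in the 3 controls and at 6.10 and 4.64 in controls 1 and 3. No KO list had a peak in Ngef. Bcl11b, a transcription factor of these neurons, had 4.38 and 5.93 in controls 2 and 3, and Penk, the enkephalin precursor of indirect-pathway neurons, 5.47 and 5.93.

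Chromatin regulators had control-alone regions in 8 of 57 genes (14.0%), and 13 of 37 regions (35.1%), 4 of them in Kmt2d. In this list 7 genes had a region called in KO lists alone (12.3%), and 7 of 31 regions (22.6%). Chd3, a remodeller of the NuRD complex, had 8.48, 9.78 and 8.45, and Kdm6a, a histone demethylase, 8.88 and 5.96 in controls 2 and 3. Of the RNA methylation genes, 2 of 15 with a peak had a control-alone region, and 2 had a region called in KO lists alone. By regions it was 2 of 4 in each direction. Alkbh3, the m1A demethylase, had 5.54 and 8.59 in controls 1 and 2, at pileups of 5 and 12. KO 2 and KO 3 each had 1 peak elsewhere in Alkbh3. Ythdf3, a reader of methylated RNA, had 7.62 and 7.18 in controls 2 and 3, at pileups of 8 and 7, and no KO peak in the gene.

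Ion channel, cytoskeleton and motor genes lay above the share over all genes and below the share over all regions. Of 55 ion channel genes 6 had a control-alone region (10.9%), with 6 of 39 regions (15.4%), and 12 had a region called in KO lists alone (21.8%, beside 11.3% over all genes). Kcnk2, a two-pore potassium channel, had 7.01, 7.61 and 8.44 and no KO peak in the gene. Kcnip1 (a channel-interacting protein) had 25.4, 13.5 and 9.55, and Hcn2 (a pacemaker channel) 7.66 and 5.55 in controls 2 and 3. Cytoskeletal genes had a control-alone region in 6 of 43 (14.0%), and 6 of 41 regions (14.6%), among them Map7d1 at 9.85, 8.84 and 9.62 with a KO peak 49 bp away, and Mapt (tau) at 5.75 and 7.65 in controls 2 and 3. Motor and vesicle transport genes had one in 4 of 34 (11.8%), and 4 of 21 regions, among them Dctn1, the large dynactin subunit, at 9.23, 5.47 and 8.05, and Kif1a, a kinesin of synaptic vesicle precursors, at 3.54 and 3.08 in controls 2 and 3. Of cytoskeletal genes 9 had a region called in KO lists alone (20.9%), with 12 of 47 regions (25.5%). Of motor genes 7 had a region called in KO lists alone (20.6%), with 9 of 27 regions (33.3%).

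Splicing and RNA-binding protein genes had 8 of 42 regions control-alone, with 2 in Celf2, one of them called in all 3 controls at 3.40, 4.86 and 7.21. Cytosolic ribosomal protein genes, members of families with near-identical copies, had 2 of 11 (18.2%), among them Rplp1 at 4.04 and 7.41 in controls 2 and 3. By genes, 2 of 27 in the ribosomal list had a control-alone region (7.41%), beside 6.61% over all genes, and 9 had a region called in KO lists alone (33.3%), beside 11.3%. Oxidative phosphorylation genes had 4 of 15 (26.7%), with Atp5d (an ATP synthase subunit) at 7.27, 3.30 and 6.85 and no KO peak in the gene. Ubiquitin genes had 3 of 20 (15.0%), in Birc6, Ubr4 and Usp9x. By genes, 7 splicing, 3 oxidative phosphorylation and 3 ubiquitin genes had a control-alone region. A region called in KO lists alone lay in 6, 5 and 9 genes of these lists.

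Lists of other cell types held few genes with a peak, so their counts are small. Oligodendrocyte genes had no control-alone region in 11 genes with a peak, cortical excitatory neuron genes none in 6, endothelial and mural genes none in 8, and choroid plexus and ependymal genes none in 3. Astrocyte genes had 2 of 9: Slc4a4, a bicarbonate cotransporter, at 7.38, 14.5 and 15.3, and Atp1b2 at 3.28 and 3.43 in controls 2 and 3. Laptm5 was the 1 microglial gene of 9, and Sst (somatostatin) the 1 interneuron gene of 2, at 2.93 and 3.75. Regions called in KO lists alone lay in 3 astrocyte genes, 1 microglial, 1 endothelial or mural and 1 choroid plexus or ependymal gene. No oligodendrocyte, cortical excitatory neuron or interneuron gene had one.

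By position, 429 of the 479 regions (89.6%) had their summit in a protein-coding gene, 14 in an lncRNA gene, 31 in no annotated gene, 1 in a tRNA gene and 4 in genes of other classes. Over control peaks, 86.0% ± 6.29 (SD, n = 3 libraries) of control-alone peaks lay in protein-coding genes, against 89.8% ± 1.92 of the other peaks in the same lists. The share in no annotated gene was 8.86% ± 3.79 against 5.96% ± 1.85, and that in lncRNA genes 3.77% ± 1.71 against 2.42% ± 0.151. The median gene span was 39.6 kb ± 3.87 against 62.2 kb ± 30.9. All 3 libraries moved the same way in each of these 4 measures. By the rule each region was called in at least 2 of them, so their values rest partly on the same regions and are not independent. The exact two-sided sign-flip permutation test gave p = 0.25 for each (0.25 after Benjamini-Hochberg adjustment over the 4), the smallest p that 3 libraries allow, so no difference could pass 0.05. The differences in span were 53.7 kb in control 1, 10.3 kb in control 2 and 3.73 kb in control 3.

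Control-alone summits were most dense just downstream of annotated starts. The 61 regions that touched a start window were 12.7% of the 479. A start window is the 250 bases before and 50 bases after a RefSeq start. The share was 15.0% for regions shared with a KO list, 5.87% for regions called in KO lists alone and 5.36% for regions of 1 control alone. Of control-alone peaks in controls 1, 2 and 3, 10.9%, 16.0% and 15.0% had their summit within 200 bp downstream of a start, against 4.79%, 11.3% and 13.7% of the other peaks. Against only the regions shared with a KO list, whose shares were 12.1%, 12.2% and 13.2%, the control-alone share was lower in control 1 and higher in controls 2 and 3. In both controls 2 and 3 the 50 bp bin with most control-alone summits began 150 bp downstream, with 8.55% and 9.07% of the peaks. The regions shared with a KO list had a hump at the same place.

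**Figure D4:**
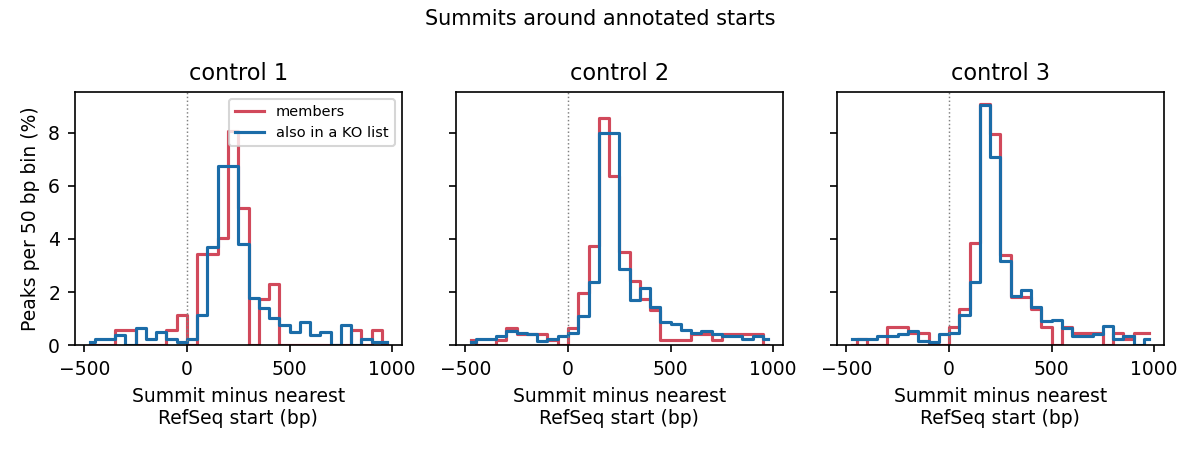
Share of peaks per 50 bp bin (vertical axis) by distance of the summit from the nearest RefSeq start (horizontal axis, positive downstream), for control-alone regions and for regions called in 2 or 3 controls and a KO list, in each control. Both sets peak at about the same distance, with 8.55% and 9.07% of control-alone peaks in the bin that begins at 150 bp in controls 2 and 3.

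The start windows touched by control-alone regions were rich in G and C. The 75 windows had a median GC content of 71.0%, against 68.0% for the 956 windows touched by any region and 52.7% for all 32851 windows. The motif GTTCNA, the T-loop core around m1A in tRNA, was searched on both strands and was found in 8 of the 75 windows (10.7%). It was in 18.1% of windows touched by any region and 31.3% of all windows. None of the 5 stretches shown above lay in a window holding it. The windows end 50 bases after the start, while in controls 2 and 3 the fullest bin of control-alone summits began 150 bp downstream. The search did not cover the bases at those summits, so it cannot show whether the motif lies there. GC content also differed between the sets of windows, and its part in the motif shares was not tested. Further along the gene, 15.0%, 15.4% and 15.5% of placed control-alone peaks in controls 1, 2 and 3 lay in the last 10% of the gene, against 9.83%, 9.95% and 9.88% of peaks shared with a KO list. The first 10% held 46.7%, 39.3% and 40.9% of them, against 44.5%, 45.5% and 45.6%.

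Of the 440 genes, 245 (55.7%) had a peak elsewhere in a KO list, and 86 (19.5%) had one in all 3. The first share was 48.6% with lists of equal length, 45.5% without KO 2, 48.8% without KO 3 and 45.7% without control 1 and KO 2. The other 195 (44.3%) had no KO peak. Further peaks were found for 28.0%, 39.1% and 35.2% of the 440 genes in controls 1, 2 and 3, and for 37.3%, 43.0% and 30.5% in KO 1, 2 and 3. Over all 6656 genes with a peak, the shares with any peak were 36.8%, 38.5% and 34.5% in the controls and 40.9%, 55.6% and 34.6% in the KO lists. In control 1 and the 3 KO lists the 440 genes lay below all genes, with the control-alone regions themselves not counted. The 2 shares are not alike. The 440 genes were chosen by control calls, while the 6656 include genes that had a peak in KO lists alone. A lower KO share is thus partly built into the choice. Of 97 genes with a region called in all 3 controls, 44 had no KO peak, a share close to the 44.3% of all 440 genes. Among the 44 were Ngef, Kcnk2, Laptm5, Atp5d, Rasl11b, Eno2 (the neuronal enolase), and Zfp36l1 and Zfp36l2, which bind AU-rich RNA. The names Eno2, Zfp36l1 and Zfp36l2 were picked after the values were seen. At the level of genes, 258 of the 2023 with a peak in at least 2 controls had no KO peak (12.8%), and 510 of the 2392 with a peak in at least 2 KO lists had no control peak (21.3%). A control-alone region and a region called in KO lists alone occurred together in 41 genes, 9.32% of the 440 and 5.45% of the 752 genes with the latter.

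The median distance from a control-alone region to the nearest KO peak was 19639 bp. It was 47753 bp from regions called in KO lists alone to the nearest control peak, and 48824 bp from regions of 1 control alone to the nearest KO peak. KO 1, 2 and 3 held 3782, 6947 and 3057 peaks, and controls 1, 2 and 3 held 3179, 3444 and 3004. Distances to a KO peak and to a control peak thus run to lists of unlike density, and the part of this was not tested. A KO peak lay within 200 bp of 29 regions (6.05%), within 1000 bp of 75 (15.7%) and within 10000 bp of 194 (40.5%). The 5 closest lay 45 to 71 bp away.

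Lists that took no part in a choice give a look at how the calls carry over. For this, regions were chosen from 2 controls and 2 KO lists (called in both controls and in neither KO list) and looked up in the left-out control and KO list. The 9 choices share libraries and are not tested. With control 2 left out, 80.7% to 82.7% of the 162 to 176 chosen regions were called in control 2 and 17.9% to 24.4% in the left-out KO list. With control 3 left out, the shares were 72.1% to 74.2% and 19.5% to 25.9% for 185 to 201 regions. With control 1 left out, 25.4% to 26.3% of the 525 to 562 regions were called in control 1 and 21.3% to 26.5% in the left-out KO list. The 2 ranges overlap. Over all regions called in the other pair of controls, whatever the KO lists, control 1 called 38.0% of 2002, control 2 called 92.3% of 823 and control 3 called 87.9% of 865. KO 1, 2 and 3 called 60.0%, 53.7% and 57.3% of the 2170 regions called in at least 2 controls. The chosen regions had been required to lack a peak in 2 KO lists, so a lower KO share is partly built in. Regions chosen the other way were called in the left-out KO list at 39.7% to 62.5%. In the left-out control they were called at 2.88% to 28.9%.

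**Figure D5:**
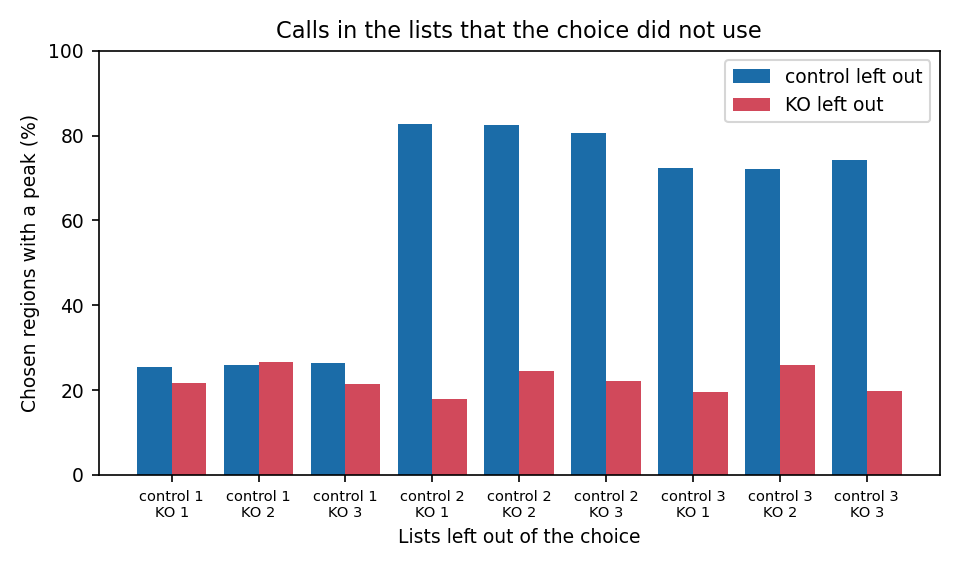
Share of regions (vertical axis) chosen from 2 controls and 2 KO lists that had a peak in the control (blue) and the KO list (red) left out of the choice, for each of the 9 pairs left out (horizontal axis). With control 2 left out the control bars stand at 80.7% to 82.7% and the KO bars at 17.9% to 24.4%, while with control 1 left out they stand at 25.4% to 26.3% and 21.3% to 26.5%.

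The number of regions depended on which lists were used. Leaving out control 2 or control 3, with both remaining controls required, left 135 and 149 regions, and leaving out control 1 left 413. Without KO 1, KO 2 or KO 3, the number of control-alone regions was 609, 651 and 606, and it then exceeded the regions called in both remaining KO lists alone by 279, 164 and 134. Without control 1 and KO 2, both of which stand apart in depth or calling, there were 567 control-alone regions, 63 more than in the other direction. With all 6 lists the numbers were 479 and 903.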

How the data were processed

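The data were 6 lists of m1A peaks, 1 per pull-down. Per the submitters' processing notes the tools were cutadapt 2.8, HISAT2 2.1.0 and MACS2 2.2.6 on GRCm38. Per the file headers, MACS2 was run on each pull-down with its input, at a q limit of 0.01 and an extension of 150 bp. Duplicates were all kept in control 1 and limited to 1 tag per position in the other libraries. Per the file headers, each peak carries the authors' pileup (a signal), −log10 of the p-value and q-value, and fold enrichment (a ratio). Positions in bp (other) are as the authors deposited them. Percentiles of fold were taken within a list. Folds of 1 region in several lists are set side by side, and the naming rule took the lowest of them, although the lists differ in depth and calling.

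Regions were merged at 1 shared bp in Python 3.11.15 with pandas 2.3.3 and numpy 2.4.6, and figures were drawn with matplotlib 3.10.9. Merging was checked on simulated data. Summits were placed in the RefSeq gene spans of GRCm38.p6 (49993 genes), and 2 summits in more than 3 genes were left out. Start windows (32851 windows, 27025 genes) were matched by position. Exons and transcripts were not used here.

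Members and gene lists were chosen with earlier results of these data known. Named genes were, by rule, the 12 highest in all 3 controls, the 8 highest in 2, the 6 genes with most regions and up to 4 per list. Some of these are not reported here. Genes with sequence were the 5 protein-coding ones whose start, at the edge of the gene with no other gene over it, had at least 20 of the 120 bases in a region. Lists have no read counts outside peaks, so no interval for a missing call can be given. Alternatives were a higher −log10 q or fold limit, lists of equal length, a 200 bp gap and an overlap of 50% of a peak. Others were all 3 controls, each library left out, control 1 and KO 2 left out, and the listed ribosomal RNA loci left out.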

Additional observations from a re-analysis of the deposited data

How the results depend on the processing

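The number of control-alone regions was 479. It was 430 at a −log10 q of at least 5, 451 at a fold of at least 4 and 521 with 3004 peaks from each list. It was 444 with peaks within 200 bp counted as shared, 491 with an overlap of 50% of a peak required and 474 without the listed ribosomal RNA loci. It was 108 when all 3 controls had to call a region. Leaving out 1 library gave 135 (without control 2) to 651 (without KO 2). The number minus that of regions called in KO lists alone was -424. It was -136 with lists of equal length and -84 with all 3 of a group required. It ranged from -1058 (without control 2) to 279 (without KO 1), reversing without KO 1, 2 or 3 (279, 164 and 134) and without control 1 and KO 2 (63). Leaving out a library also changes how many lists must agree, and the part of depth was not tested. Of 85 named regions, 23 stayed in under every alternative other than the rule of 3 controls. A region called in exactly 2 controls drops out by the rule when either is left out, since both remaining controls must call it. The 23 are therefore all regions called in 3 controls, and the count says little about the other named regions. Placing a region by any overlap with a gene span changes none of these numbers of regions. No paired analysis was possible because the contrast of the genotypes chose the regions and comes from no test, and the annotation tests are within control libraries.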

Other observations

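One control-alone region lay in a tRNA gene, where m1A is a standard modification. It was n-TMcat7, a gene of the methionine tRNA family (chr13:21711006-21711194), at fold enrichments of 18.5, 9.55 and 9.82 in controls 1, 2 and 3. Of the 9 regions in tRNA genes, 3 were called in all 6 libraries, among them n-TMcat2 and n-TMcat5. In the other direction, 2 were called in 2 or 3 KO lists and in no control list (n-TGtcc4 and n-TGgcc14). Reads of near-identical tRNA copies cannot be assigned with certainty, so which copy carried the peak is uncertain.

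Over chromosomes 1 to 19 and X, the share of regions called in at least 2 controls that were control-alone ran from 15.6% on chromosome 8 (17 of 109) to 31.3% on chromosome 7 (57 of 182). None of the 10 mitochondrial regions called in at least 2 controls was control-alone.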
